A study of Drosophila melanogaster with 3 samples.

Results

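The divergent promoter peaks of CG11504 are places where this Drosophila protein was found between or beside 2 protein-coding genes that start close together and are transcribed away from each other. They were taken from the authors' list of 10650 peaks that passed a threshold on the irreproducible discovery rate (IDR), a measure of how well peak ranks repeat between replicates. The 500 peaks with the highest signal were left out, which left 10150. A peak was kept when its summit lay within 500 bp of the start of a protein-coding gene that has, within 1000 bp on the opposite strand, the start of another protein-coding gene pointing the other way. The rule kept 868 peaks. The genome held 2667 such divergent pairs, made of 5052 of the 13945 protein-coding genes, and 791 pairs (29.7%) had at least 1 of these peaks. A further 63 pairs (2.36%) had only a peak from the 500 strongest, and 1813 pairs (68.0%) had none. The peaks were chosen by their signal value and summit position, so both are given below as descriptions.

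The peaks come from chromatin immunoprecipitation followed by sequencing (ChIP-seq) on 3 biological replicates of whole embryos, 0 to 18 h old and of both sexes, from 1 transgenic line. The line makes CG11504, a gene known only by its number, with green fluorescent protein at the C-terminal end, and an anti-GFP antibody pulled down DNA sheared to 200 to 800 bp. All 3 replicates carry the same transgene, and neither a line without the tag nor the control library's own data were analysed here, so peaks common to many GFP experiments are counted too. Each replicate also has its own list of 30000 peaks, and the sequencing depth is unknown. Values given for replicates apply the same rule to that replicate's 10650 strongest peaks, again without the first 500. Embryos of mixed age hold many cell types, so a pair without a peak can still be occupied in a few cells.

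Where 2 genes start back to back, the DNA between them serves as promoter for both, and a factor bound there can act on either gene or on both. Such pairs are common in the compact genome of Drosophila and hold many housekeeping genes, whose promoters often carry sites for the factors DREF, BEAF-32 and M1BP. Promoters of these genes are usually free of nucleosomes and rich in A and T just upstream of the start.

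The sequences between the starts of a few pairs show what this DNA looks like. The first 4 lie under the strongest divergent peaks whose summit is between starts less than 300 bp apart, and the next pair, added after its values were seen, has a cytoplasmic ribosomal protein gene on one side and a nucleoporin gene on the other. The last pair of sequences, each 300 bp long, has no peak and a spacing near the median. Other pairs without a peak lie nearer to it, such as ArgRS/CG8578 at 331 bp. The median spacing was 331 bp in pairs with a peak and 284 bp in pairs without. All are the forward strand of the dm6 assembly, from the base after the left start to the base before the right start, at chr2L:13373891-13374018, chr3L:6094748-6094986, chr2L:4945362-4945578, chr2L:13387313-13387570, chr3R:25247515-25247657, chr2L:12109117-12109416 and chr3L:6193180-6193479 in the order shown. No annotated exon overlaps them. Capitals mark, on either strand, the word ATATTA, the similar word AATATT, which can overlap it, the TATA box word TATAAA, the DREF site TATCGATA and the M1BP site GGTCACAC.
Bdp1/CG6565: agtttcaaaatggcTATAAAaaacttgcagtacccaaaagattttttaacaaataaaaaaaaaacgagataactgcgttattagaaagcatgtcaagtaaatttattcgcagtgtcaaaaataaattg
CG10467/loj: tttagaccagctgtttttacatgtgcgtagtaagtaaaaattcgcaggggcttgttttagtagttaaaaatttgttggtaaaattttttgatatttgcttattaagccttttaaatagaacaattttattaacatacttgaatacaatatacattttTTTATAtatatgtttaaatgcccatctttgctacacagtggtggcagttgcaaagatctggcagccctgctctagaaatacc
mRpL24/betaggt-I: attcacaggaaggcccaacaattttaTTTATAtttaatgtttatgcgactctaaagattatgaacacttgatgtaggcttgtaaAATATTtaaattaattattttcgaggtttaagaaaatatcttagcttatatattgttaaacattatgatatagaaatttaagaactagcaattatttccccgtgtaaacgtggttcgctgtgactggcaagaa
Ing5/CG7099: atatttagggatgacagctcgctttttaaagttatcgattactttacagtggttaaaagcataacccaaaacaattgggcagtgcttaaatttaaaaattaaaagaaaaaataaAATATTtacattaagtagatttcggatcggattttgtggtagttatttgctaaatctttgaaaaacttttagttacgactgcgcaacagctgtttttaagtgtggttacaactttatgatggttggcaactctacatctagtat
RpS27/Nup37: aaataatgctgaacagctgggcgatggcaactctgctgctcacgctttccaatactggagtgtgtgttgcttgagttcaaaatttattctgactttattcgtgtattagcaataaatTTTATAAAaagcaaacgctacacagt
Rab6/Phae1: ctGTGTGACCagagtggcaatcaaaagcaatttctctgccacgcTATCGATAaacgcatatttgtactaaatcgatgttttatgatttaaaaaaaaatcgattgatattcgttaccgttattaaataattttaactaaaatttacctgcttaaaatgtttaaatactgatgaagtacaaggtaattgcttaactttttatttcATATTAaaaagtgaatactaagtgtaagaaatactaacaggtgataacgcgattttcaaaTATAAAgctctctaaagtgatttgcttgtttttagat
Sf3b6/Tnpo: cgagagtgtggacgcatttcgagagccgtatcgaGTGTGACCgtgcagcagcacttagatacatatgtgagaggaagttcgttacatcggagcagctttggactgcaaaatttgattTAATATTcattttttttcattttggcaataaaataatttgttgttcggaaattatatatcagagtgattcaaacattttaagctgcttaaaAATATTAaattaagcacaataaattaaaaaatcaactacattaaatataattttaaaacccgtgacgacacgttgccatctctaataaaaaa
In the first 4 sequences 26.6% to 31.0% of bases were G or C, against 28.0% and 32.3% in the last pair, so these sequences with and without a peak overlapped in base composition. The summits lay 87, 110, 117 and 115 bp from the left start in spacings of 129, 240, 218 and 258 bp. In RpS27/Nup37 the summit lay 32 bp from the start of RpS27 in a spacing of 144 bp. The sequence between Rab6, a GTPase of vesicle transport, and Phae1 holds both TATCGATA and GGTCACAC and had no peak. Both sequences without a peak hold GGTCACAC, which was in 9.54% of all pairs without a peak, so they are not typical of such pairs.

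The strongest of these peaks, rank 520 of the IDR list, lay between chb, whose product binds the growing ends of microtubules, and Ac78C, an adenylyl cyclase gene, which start 923 bp apart on 3L. Its rank was 636, 510 and 422 in replicates 1, 2 and 3. Its summit was 184 bp from the start of chb and 739 bp from that of Ac78C. The next, rank 527, lay in an intron of E(z), which encodes the histone H3K27 methyltransferase of Polycomb complex 2, 102 bp from its start, and E(z) and Cnep1r2 start 16 bp apart. Its ranks were 466, 568 and 593 in replicates 1, 2 and 3. The 2 peaks thus stood in unlike places, one far out in a wide gap and one inside a gene beside a narrow gap.

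Rank 531 lay between Vps33B, a vesicle tethering gene, and Fur1, a furin protease gene, with ranks of 524, 538 and 549 in the replicates. Rank 540 lay between Nubp2, of iron-sulphur protein assembly, and Pss, a phosphatidylserine synthase gene, with ranks of 445, 528 and 812. Rank 542 is the peak between Bdp1, a subunit of the RNA polymerase III factor TFIIIB, and CG6565, shown first above, with ranks of 483, 504 and 788. The others of the 10 strongest were at CG8892/CG34126 (rank 538), CG34309/Lip3, a lipase gene (545), scramb2/Sk2, genes of a phospholipid scramblase and a sphingosine kinase (554), CG10467/loj, a gene of the p24 family of secretory cargo proteins (556), and HipHop/CG14073 (557), where HipHop caps telomeres. All 10 were found again in 3 of 3 replicates. For 7 of the 10 the summit lay between the 2 starts, and the exceptions were E(z), CG8892 and scramb2.

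The limits of the rule cut through a continuous range. Just inside the summit limit were peaks 495 bp from the start of ZnT77C, a zinc transporter gene, and 498 bp from that of Nmda1, and just outside were peaks 509 bp from the nearer start of CG32767/CG15465 and 514 bp from that of RpS19b/CG5854. Just inside the spacing limit were Yod1/CG15213 and RpS7/Anp, both 1000 bp apart, and just outside were raptor/Nep1 at 1004 bp and Rgk1/CG11961 at 1007 bp. Among the 500 strongest peaks that were left out, 72 met the rest of the rule, the weakest being those at fws/Lamtor3 (rank 489) and CG32022/CG6511 (rank 494). The 868 peaks kept had ranks of 520 to 10618.

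The peaks were repeatable to the same degree as other promoter peaks. Of the 868 summits, 626 (72.1%, 95% exact binomial interval 69.0 to 75.1) had a summit within 100 bp among the strongest peaks of all 3 replicates, 170 in 2, 65 in 1 and 7 in 0. The share repeated was 91.4%, 88.7% and 82.9% in replicates 1, 2 and 3. Of the 2046 other promoter peaks, meaning those within 500 bp of a protein-coding start that is in no such arrangement, 72.3% were repeated in all 3. The IDR list was made from these replicates, so these shares describe the list. Intervals here and below cover counting error only, and peaks or genes of 1 library are not replicates.

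Where every replicate had a summit nearby, the spread of its position could be measured. For the 752 divergent peaks with a summit within 100 bp in all 3 full replicate lists, the median SD of the summit position over replicates was 17.0 bp, and 90% of the SDs were below 44.9 bp. The limit of 100 bp itself holds these SDs down, and the other 116 divergent peaks had no such summit in at least 1 replicate. In 684 of the 752 (91.0%) the summit was on the same side of the starts, either between them or outside them, in all 3 replicates. In 632 (84.0%) the same gene was the nearer one in all 3. Of the 120 where it was not, 116 had a summit about midway, with distances to the 2 starts within 100 bp of each other, where the nearer gene cannot be told.

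Signal was higher at divergent promoter peaks than at other promoter peaks. The median signal was 703 against 596, with 498 for peaks away from starts, and in replicates 1, 2 and 3 it was 253, 286 and 188 at divergent peaks against 207, 247 and 171 at other promoter peaks. Of the divergent peaks 22.8% had ranks of 501 to 2000, against 19.5% of other promoter peaks and 12.5% of peaks away from starts. The scale of the signal is unknown, and signal was used by the rule, so these medians are ordered and no more.

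Genes in divergent pairs had a peak at their own start more often than genes outside such pairs. With the same cut at the 500 strongest, 1459 of 5052 genes in divergent pairs (28.9%, 27.6 to 30.2) had a summit within 500 bp of one of their own starts, against 1492 of 8893 genes in no divergent pair (16.8%, 16.0 to 17.6). Over all protein-coding genes the share was 21.2%. It was 33.2%, 30.6% and 32.4% for genes in pairs in replicates 1, 2 and 3, against 17.8%, 16.6% and 18.5% for the others, so the gap was present in 3 of 3. Genes with 1 annotated start showed it too, at 23.5% in pairs and 11.4% outside pairs. A single peak between 2 starts counts for both genes, so genes in pairs have more ways to be counted. With 3 replicates an exact paired permutation test cannot go below p = 0.25, so no p is given for this or any other comparison.

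The share of pairs with a peak depended on how far apart the genes start. It was 20.2% (16.5 to 24.3) for the 430 pairs up to 100 bp apart and 21.3% (17.2 to 26.0) for the 356 pairs at 101 to 200 bp. It was 30.6% (26.8 to 34.7) for the 542 pairs at 201 to 300 bp and 36.7% (33.1 to 40.5) for the 667 pairs at 301 to 500 bp. Wider pairs had 32.5% at 501 to 750 bp and 32.0% at 751 to 1000 bp, with intervals that overlap those of the 2 classes before them. The replicates gave 23.8% ± 2.03 up to 100 bp and 23.0% ± 1.71 at 101 to 200 bp, and 38.5% ± 1.98 at 301 to 500 bp (SD, n = 3), a difference larger than the spread between replicates. The median spacing was 331 bp in pairs with a peak (328, 328 and 331.5 bp in the replicates) and 284 bp in pairs without. The stretch within 500 bp of either start is longer in wider pairs, so a wider pair offers more room for a summit.

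**Figure D1:**
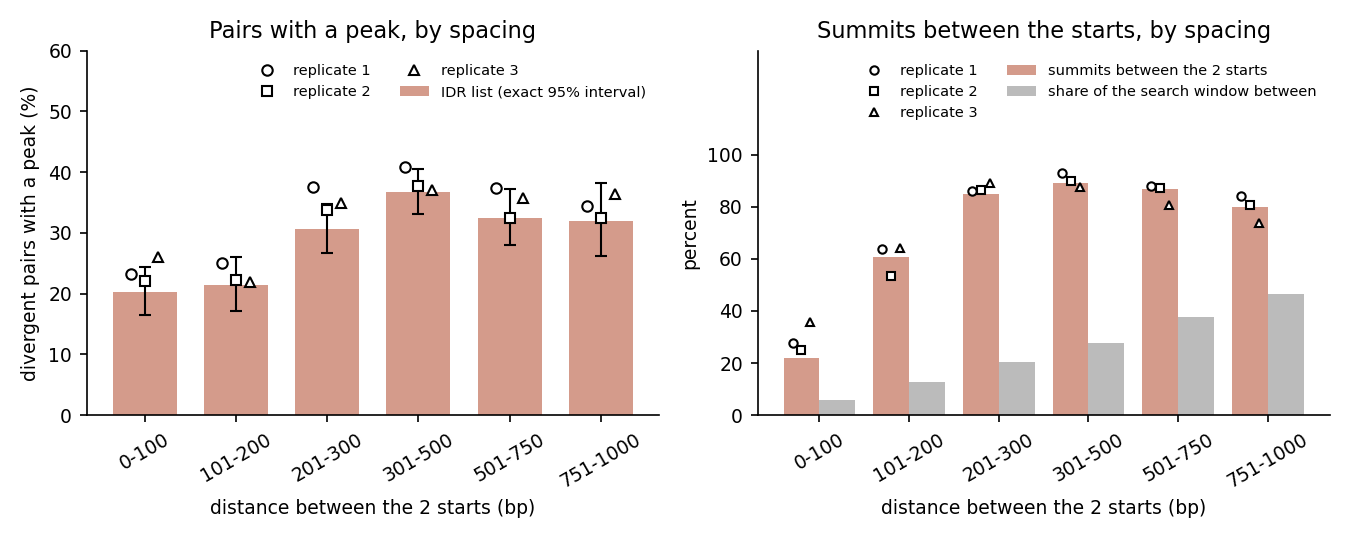
Left, percent of divergent pairs with a peak (bars, IDR list, with exact 95% intervals) by the distance between the 2 starts in bp, and the 3 replicates as open symbols. Right, percent of summits between the 2 starts (left bar of each couple, replicates as open symbols) beside the percent of the searched window that lies between them (grey). Pairs up to 200 bp apart have the lowest shares, 20.2% and 21.3%, and from 201 bp on at least 80.0% of summits are between the starts.

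Close spacing did not keep all pairs free of peaks. Pairs with a peak included CG11710/mal, a molybdenum cofactor sulfurase gene, 2 bp apart, and CG3032/CG4593 and CG7246/HP1b, a heterochromatin protein gene, both 6 bp apart. A pair counts when a summit lies within 500 bp of any of its starts. With each summit taken at its nearest start, the closest gaps were 8 bp (CG9588/Lkb1), 12 bp (CG2004/CG1785) and 16 bp (E(z)/Cnep1r2). Their summits lay outside the gap. The closest pairs without one were Diap2/bug (0 bp), where Diap2 inhibits apoptosis, and Atg6/Pisd and CG4730/CG5039 (both 1 bp), where Atg6 is an autophagy gene.

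Summits were gathered in the gap between the 2 genes. Of 868 summits 684 (78.8%, 75.9 to 81.5) lay between the starts, although on average 27.5% of the searched window does, and the replicates gave 79.7% ± 1.88 (SD, n = 3). The 184 summits outside lay inside the transcribed side of one gene. By annotation 572 summits were intergenic, 164 in a 5' UTR and 113 in an intron. Of pairs up to 100 bp apart only 21.9% of the 73 summits lay between the starts. At 101 to 200 bp it was 60.6% and at 301 to 500 bp 89.2%.

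The median distance from the summit to the nearest start of the pair was 112 bp (quartiles 58.75 and 165 bp), and it was 110, 111.5 and 101 bp in the replicates. It was 48 and 42 bp in the 2 closest classes, 101 bp at 201 to 300 bp, 128 bp at 301 to 500 bp, 159 bp at 501 to 750 bp and 151.5 bp at 751 to 1000 bp. For summits between the starts only, the distance was also taken as a share of the gap from the nearer start. The median share was 39.6% at 201 to 300 bp, 33.6% at 301 to 500 bp, 28.0% at 501 to 750 bp and 17.6% at 751 to 1000 bp. This share cannot exceed 50%, the midpoint, and summits spread evenly along a gap would have a median well below 50%. Summits lay closest to the middle in gaps of 201 to 300 bp, and beyond these the median share fell as the gap widened. Relative to the nearest protein-coding start of any kind, 80.3% of divergent summits were upstream at a median offset of -95.5 bp, against 81.4% and -143 bp for other promoter peaks.

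**Figure D2:**
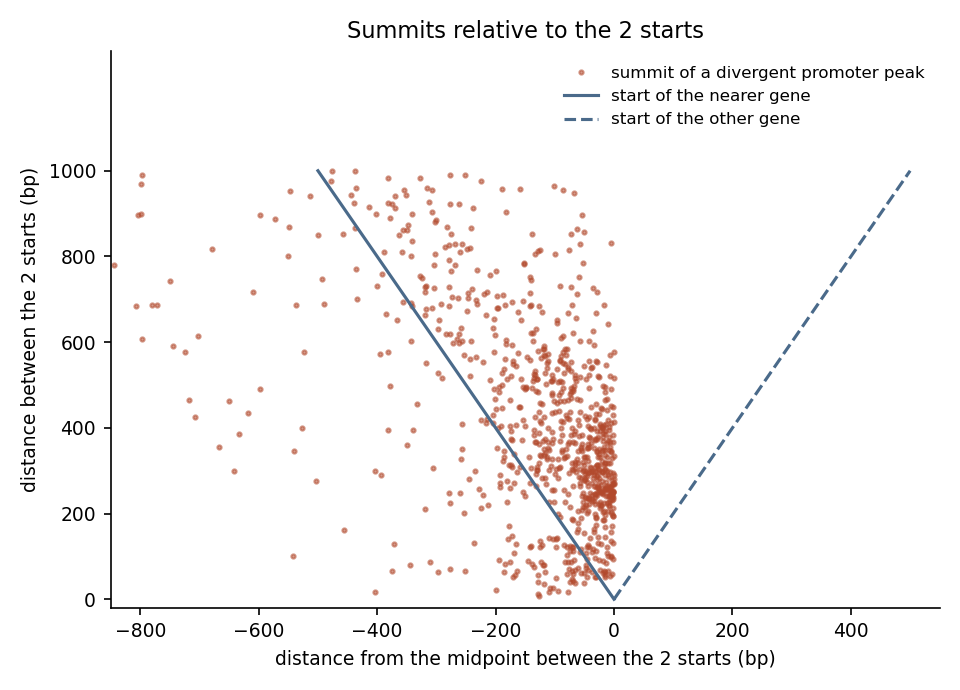
Each point is the summit of a divergent promoter peak, placed by its distance in bp from the midpoint between the 2 starts (x axis, with the nearer gene always on the left) and by the distance between the starts (y axis). The lines are the 2 starts; summits right of the solid line lie between the starts, as 684 of 868 do, and points crowd towards the midpoint for spacings of 201 to 300 bp.

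The nearer gene was not of a fixed kind. It was the longer of the 2 genes in 471 of 868 cases (54.3%, 50.9 to 57.6) and on the forward strand in 462 (53.2%, 49.8 to 56.6). In pairs over 500 bp apart the longer gene was nearer in 56.7% (50.7 to 62.5). Most pairs, 639, had 1 divergent peak, 142 had 2 and 10 had 3 or more. Pairs with more than 1 had a median spacing of 418.5 bp.

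Divergent summits sat in DNA poorer in G and C than other promoter summits. Within 50 bp of the summit 32.8% of bases were G or C (32.7%, 32.4% and 34.5% in replicates 1, 2 and 3), against 36.3% for other promoter peaks (36.7%, 35.6% and 37.4%). Peaks away from starts had 32.4% in the IDR list, so the low value is not particular to divergent peaks. Farther out the order turned: at 201 to 400 bp the values were 43.6% and 42.5%, and at 401 to 1000 bp 47.1% and 42.7%. The low stretch is thus set in sequence that was richer in G and C at divergent peaks than at other promoter peaks. In the deepest class, 201 to 300 bp, GC content at the summit was 29.9%, against 36.6% in pairs up to 100 bp apart.

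Gaps without a peak were nearly as poor in G and C at intermediate spacings. In pairs 201 to 300 bp apart the 50 bp on each side of the midpoint had 27.0% with a peak and 28.3% without, and at 301 to 500 bp it was 27.5% and 28.6%. In the widest pairs, 751 to 1000 bp, the gap was larger, with 33.6% and 37.4%. Over all pairs, within 150 bp of the midpoint, pairs with a peak were lower by 2.17 percentage points on average in the replicates (-2.23, -2.42 and -1.87, SD 0.282), and in the IDR list the difference was -2.11 points. In that window the difference was small at 301 to 500 bp, where the values were 31.1% and 31.2%. There, pairs with a peak were lower close to the midpoint and higher from 140 to 200 bp away, a stretch chosen after the values were seen, with 43.4% with a peak and 40.2% without (43.1%, 43.3% and 43.01% in the replicates, against 40.1%, 40.2% and 40.4%). Pairs with a peak were also wider, and the pooled difference was -1.10 points with a spacing limit of 2000 bp and -1.31 points among pairs under 300 bp apart.

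**Figure D3:**
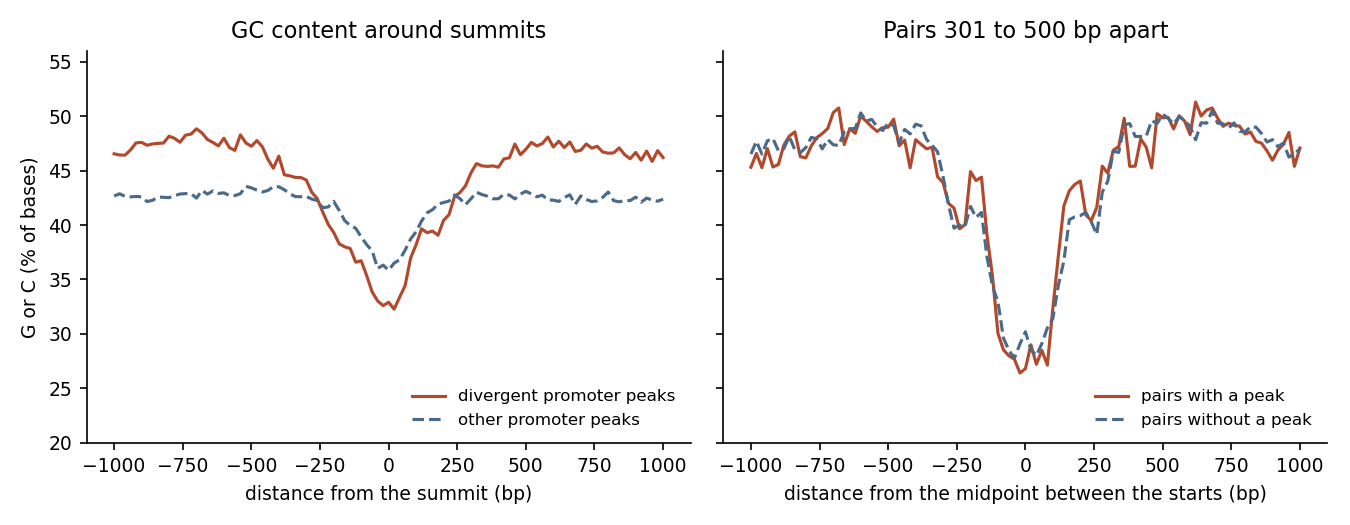
Percent of bases that are G or C in steps of 20 bp. Left, around the summits of divergent promoter peaks (solid) and of other promoter peaks (dashed), against the distance from the summit in bp. Right, around the midpoint of pairs 301 to 500 bp apart with a peak (solid) and without (dashed). The dip at divergent summits is deeper and its flanks higher. The curve of pairs with a peak is lower on average within 50 bp of the midpoint, 27.5% against 28.6%, though not in every step. It is higher around 140 to 200 bp from the midpoint, 43.4% against 40.2%.

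Of 15 preset short words, AT-rich ones were more common in pairs with a peak and the initiator word less common. ATATTA and AATATT were already known as frequent at summits from earlier results of these data. Their shares are therefore no independent support. A word was counted when it stood on either strand within 150 bp of the midpoint between the starts. ATATTA was found in 52.8% of pairs with a peak and 41.6% without, and in 45.2% of all pairs. The replicates gave 51.05%, 51.8% and 49.4% with a peak, against 41.8%, 41.8% and 42.7% without. AATATT, which can overlap it, was in 46.0% and 38.9% (41.1% of all pairs). GTATTT, known as Ohler motif 6, a core promoter element of housekeeping genes, was in 44.1% and 36.7% (38.9% of all). TAATTA, the core of many homeodomain sites, was in 32.4% and 26.9% (28.5% of all). These words are themselves rich in A and T, pairs with a peak differed by -2.11 points in GC content in the same window, and the part of base composition in these shares was not tested. The difference for AATATT, 7.13 percentage points, was 4.47 with a spacing limit of 500 bp and 4.45 without replicate 1, and that for GTATTT, 7.44 points, was 4.38 with a spacing limit of 2000 bp.

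The word TCAGTT, part of the initiator that marks the start site of many developmentally regulated genes, was in 16.8% of pairs with a peak and 22.6% without (20.7% of all pairs). The replicates gave 17.4%, 17.3% and 17.9% with a peak, against 22.8%, 22.5% and 22.3% without. Initiators lie at the starts, which fall outside the window in pairs over 300 bp apart. At spacings of 201 to 750 bp, which still hold many such pairs, the shares were 16.2% with a peak and 21.9% without. How often the word stood at the starts themselves was therefore not measured. ATATTA at these spacings was in 57.1% and 49.2%, GTATTT in 44.7% and 40.4% and TAATTA in 37.0% and 31.2%. AATATT was in 48.9% and 44.6%, but in replicate 3 its order turned, with 45.7% and 46.3%. In the same pairs GAGAG, the core of the GAGA factor site, was in 16.2% of pairs with a peak and 21.4% without, although over all spacings the shares were 20.5% and 22.4% (21.9% of all).

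Words of the housekeeping promoter factors differed by under 4 percentage points over all spacings. TATCGATA, the site of DREF, was in 13.9% of pairs with a peak and 13.1% without (13.3% of all), and GGTCACAC, the site of M1BP, in 10.4% and 9.54% (9.64% of all). CGATA, a core of the BEAF-32 site that lies inside TATCGATA, was in 52.3% and 55.4% (54.6% of all). The order turned for TATCGATA in replicate 2, with 13.2% and 13.3%, and for CGATA in replicate 3, with 55.4% and 54.0%. At spacings of 201 to 750 bp all 3 were more common with a peak. TATCGATA was in 13.5% and 10.6% there (14.7% and 9.74%, 13.1% and 10.7%, and 14.5% and 10.03% in replicates 1, 2 and 3). GGTCACAC was in 10.2% and 7.38% (9.94% and 7.23%, 10.3% and 7.25%, and 9.88% and 7.45%), and CGATA in 52.9% and 49.8%, so that its order over all spacings was turned. TATAAA was in 54.5% and 50.5% (51.8% of all), but at 201 to 750 bp in 58.2% and 57.6%. There the replicates gave 59.0% and 57.2%, 59.6% and 57.0%, and 60.8% and 56.2%. The remaining words differed by less than 2 percentage points over all spacings: the E-box CACGTG was in 3.92% of pairs with a peak and 3.75% without (3.75% of all), the other E-box CAGCTG in 19.1% and 19.1% (19.6% of all), and the Zelda word CAGGTA in 5.44% and 5.90% (5.81% of all). GCAGCA was in 16.2% and 17.8% (17.2% of all), and the GATA factor word, GATA with A or T before it and A or G after it, in 46.9% and 48.5% (48.1% of all). At 201 to 750 bp CAGCTG was in 17.5% of pairs with a peak and 14.7% without, GCAGCA in 15.7% and 13.0%, the reverse of its order over all spacings, and the GATA factor word in 49.1% and 51.8%.

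At the summits themselves ATATTA was within 50 bp of 24.7% of divergent summits and in 11.4% of flanks of the same length 151 to 251 bp away, AATATT in 21.0% and 10.7%, and TATAAA in 25.7% and 16.0%. ATATTA and AATATT were already known as frequent at summits, so their values here are no independent support. The flanks were also richer in G and C, with 38.5% at 101 to 200 bp and 43.6% at 201 to 400 bp, against 32.8% at 1 to 50 bp. The part of base composition in these differences was not tested.

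Genes in pairs with a peak were longer and had more annotated starts. Their median length was 2745 bp (n = 1491 genes), against 2138 bp in pairs without a peak (n = 3439). The replicates gave 2671, 2671 and 2683.5 bp with a peak and 2121, 2143 and 2138 bp without. They averaged 1.66 starts, against 1.38 without, and a gene with more starts has more chances of a nearby summit. Among genes with 1 start the medians were 2062 and 1850 bp. The difference of 607 bp between the medians was 201 bp with only the IDR peaks above the median signal and 337 bp with a spacing limit of 500 bp. Genes with only a CG number for a name made up 29.7% with a peak and 36.8% without.

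Pairs without an IDR peak were mostly empty in the longer lists too. Of the 1813, 127 (7.005%, 5.87 to 8.28) had a summit within 500 bp of a start in the pooled list of 30000 peaks, and 270, 201 and 296 (14.9%, 11.1% and 16.3%) in the lists of replicates 1, 2 and 3. In 115 pairs (6.34%) all 3 replicates had one, and 1400 pairs (77.2%) had none in any list. The tagged gene itself is in such a pair: CG11504 and CG15525 start 224 bp apart on 3R, at 29997900 and 29997676, with no IDR peak at either start.

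Gene families were read against the 29.5% of genes in divergent pairs whose pair has a peak (1491 of 5052). The 24 families held 511 genes in divergent pairs, and 16 of their given symbols were not matched in the annotation. That peaks are common at ribosomal protein genes and rare at chemoreceptor genes was known when the lists were made, so those shares are no independent support. What follows is how each family's peaks were placed between its genes and their partners.

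Cytoplasmic ribosomal protein genes, which build the ribosome of the cytosol, were taken by symbol. They had a peak in 32 of the 55 that lie in divergent pairs (58.2%, 44.1 to 71.3), and in 34, 38 and 39 in replicates 1, 2 and 3. The 55 include RpL24-like, RpL7-like and RpLP0-like, whose symbols mark them as only similar to such genes, and these had no peak. The strongest were at RpL34b/CG8132 (rank 798, and 738, 807 and 910 in the replicates), RpS27/Nup37 (rank 806, and 700, 837 and 988) and RpL31/CG12929 (rank 824, and 591 and 772 in replicates 1 and 2, with no summit within 100 bp in replicate 3). RpL13, which shares its gap with the gene of the promoter factor Dref, and RpL13A had none. Counted at their own starts, 31 of 55 of these genes in pairs had a peak (56.4%), against 22 of 37 outside divergent pairs (59.5%).

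The peak lay on the ribosomal protein gene's side of the gap. In 27 of the 32 cases (84.4%, 67.2 to 94.7) the summit was nearer to that gene than to its partner, and in the replicates in 28 of 34, 33 of 38 and 32 of 39. The median distance from the ribosomal protein gene's own start was 53 bp (77.5, 69.5 and 44 bp in the replicates), and 29 of the 32 summits were upstream. The pairs up to 500 bp apart had it in 19 of 19 cases (19 of 20, 21 of 23 and 23 of 25 in the replicates), and wider pairs in 8 of 13 (9 of 14, 12 of 15 and 9 of 14). Among the wide pairs, RpS7 and Anp, an antimicrobial peptide gene, start 1000 bp apart, and the summit was 24 bp upstream of RpS7. RpL8 and msn start 916 bp apart, and the summit was 45 bp upstream of RpL8. The exceptions include RpS28b/l(1)G0320, 873 bp apart, with a summit 784 bp upstream of RpS28b. The other exceptions, all in gaps over 500 bp, were RpL40, RpS6, RpL23 and RpL10Ab, where the summit of RpL10Ab lay midway. These counts use the strongest peak of each gene. Over all 41 divergent summits at these pairs 31 were nearer to the ribosomal protein gene (75.6%, and 79.1%, 78% and 76.6% in the replicates), a share of 69.6% with a summit window of 1000 bp. RpL8, msn and the exceptions were named after their values were seen.

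Mitochondrial ribosomal protein genes, which build the separate ribosome of mitochondria, had a peak in 26 of 58 in pairs (44.8%, 31.7 to 58.5), and in 28, 27 and 23 in the replicates. Counted at their own starts, 24 of 58 in pairs had one (41.4%), against 2 of 15 outside pairs (13.3%). The strongest were at mRpL24/betaggt-I (rank 567, and 560, 621 and 560 in the replicates), mRpS2/Mon1 (rank 800, and 752, 919 and 771) and mRpL20/Icmt (rank 959, and 1003, 981 and 949), while mRpL1 and mRpL15 had none. Here the summit was nearer to the family's gene in 9 of 26 cases (34.6%, 17.2 to 55.7), and in 12 of 28, 10 of 27 and 9 of 23 in the replicates. The median distance from the own start was 135 bp (136, 165 and 183 bp in the replicates), and all 26 summits were upstream of it. Over all 31 divergent summits at these pairs 13 were nearer to the mitochondrial gene (41.9%, and 45.5%, 41.4% and 41.7% in the replicates). The 2 kinds of ribosomal protein gene thus differed in where the peak lay in all 3 replicates, with medians of 44 to 77.5 bp for the cytoplasmic and 136 to 183 bp for the mitochondrial genes.

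Subunits of Mediator and of TFIID, which bring RNA polymerase II to promoters, had a peak in 11 of 31 (35.5%, 19.2 to 54.6), a share whose interval holds the 29.5% of all genes in pairs. The strongest were at Taf5/Pex6 (rank 612, and 666, 591 and 621 in the replicates), MED15/CG4297 (rank 791) and MED30/Rev1 (rank 856), and MED1 and MED10 had none. In 2 of the 11 the summit was nearer to the family's gene, and in 3 of 12, 1 of 11 and 4 of 13 in the replicates. The median distance from the own start was 182 bp. For oxidative phosphorylation genes, with 15 of 44 (34.1%), 6 of 15 were the nearer gene. Their strongest peaks were at ND-18/pcm (rank 811, but 469, 850 and 3347 in the replicates), ND-ASHI/Fum1 (rank 882) and ND-MWFE/TppII (rank 1087), all subunits of complex I paired with other genes, and ATPsynE and ATPsynF had none.

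**Figure D4:**
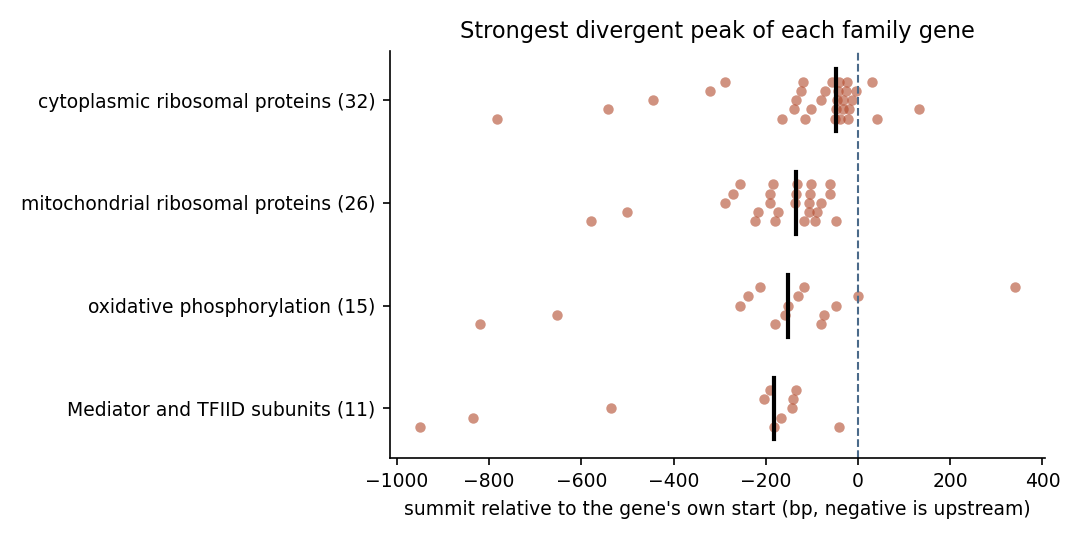
Position of the strongest divergent peak of each gene of 4 families, in bp from the gene's own nearest start, negative upstream (x axis). Points are genes, black bars median offsets, and the dashed line is the start. Cytoplasmic ribosomal protein genes crowd just upstream of the start, with a median distance of 53 bp, and the median distances of the other families are 135 bp or more.

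Polycomb and Trithorax genes, whose products maintain the silent or active state of developmental genes, had a peak in 7 of 16 (43.75%, 19.8 to 70.1), and in 6, 7 and 7 in the replicates. In 6 of the 7 the summit was nearer to the family's gene. The strongest were at E(z), at trr/mRpL16 (rank 1031, and 697, 1346 and 1332 in the replicates), where trr encodes a histone H3K4 methyltransferase, and at mor/Hel89B (rank 2577), where mor encodes a subunit of the Brahma remodeller. Asx and Caf1-55 had none. RNA polymerase subunits had 7 of 19 (36.8%), led by Polr3E/CG10584 (rank 572), Polr2B/140up (rank 843) and Polr2H/CG11247 (rank 1632), with none at Polr1A and Polr1C. Among insulator and promoter factors 2 of 7 had one. These were M1BP/CG8202 (rank 766), the gene of the factor that binds GGTCACAC, and pzg/CG12974 (rank 2739), whereas Dref and the pair Ibf2/Ibf1 had none.

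Other housekeeping families stood near the share of all genes in pairs or below it. Aminoacyl-tRNA synthetases, which charge tRNAs, had 7 of 23, led by ThrRS (rank 1142), AsnRS (1690) and GlyRS (2704), with none at AlaRS-m and ArgRS. Nucleoporins had 6 of 18, led by Nup37 and Nup98-96 (1640) and Nup43 (4210), with none at Nup133 and Nup153. Cell cycle genes had 7 of 23, led by Cdc16 (897), Cdk1 (1641) and aurB (2925), with none at APC10 and Bub1. Proteasome genes had 7 of 26, led by Rpn13 (2096), Rpn3 (2122) and Prosbeta2 (2375), with none at Prosalpha1 and Prosalpha1R. Vacuolar protein sorting genes had 5 of 18, led by Vps33B, Vps50 (1584) and Vps15 (1985), with none at Vps13 and Vps13B. Mitochondrial import genes had 2 of 5, at Tom7 (1579) and Tom20 (9764), with none at Tim10 and Tim8.

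Translation initiation factors had 4 of 21, led by eIF3h (2631), eIF5B (2848) and eIF3m (3517), with none at eIF1 and eIF1A. DNA replication genes had 4 of 22, led by Mcm2 (1859), Orc2 (3708) and Orc4 (4801). Spliceosome genes had 5 of 29, led by U2af50 (729), snRNP-U1-C (1850) and Prp18 (2037), with none at LSm-4 and LSm1. DNA repair genes had 4 of 24, led by mus312 (948), Irbp (1003) and spn-A (3698), with none at Blm and Brca2. Vacuolar proton pump genes had 2 of 14. The interval of each of these 11 families holds 29.5%, and the families are small.

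Of the families with tissue-restricted expression, chemoreceptor and cytochrome P450 genes had intervals below 29.5%, and the others have too few genes in pairs to tell. None of 26 chemoreceptor genes in pairs had one (exact interval 0 to 13.2%), Gr32a and Gr58a among those without, although 1 of the 26 had a peak among the 500 strongest that were left out, and replicates 1, 2 and 3 had 2, 1 and 1 by the same rule. None of 13 genes taken by symbol as cytochrome P450 genes had one (0 to 24.7%), Cyp28a5 and Cyp40 among those without. Replicates 1, 2 and 3 had 1, 0 and 1. Cyp40 is a cyclophilin gene, so the 13 include a gene of another family. None of 4 cuticle protein genes had one (0 to 60.2%), Cpr23B and Cpr60D among them. Among trypsin-like proteases 1 of 8 had one, Jon65Ai, whose summit was 519 bp upstream of its start and so beyond the 500 bp window of that gene. It lay at the partner, tant. Glutathione transferases had 2 of 7 (28.6%, 3.67 to 71.0), GstE1 and GstE10, from 1 shared peak that was 192 bp from GstE10. Its rank was 9774, and 12164, 11956 and 7191 in the replicates, where 0, 0 and 3 of the 7 genes had a peak by the same rule. None of 32 Hox and segmentation genes lies in a divergent pair.

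**Figure D5:**
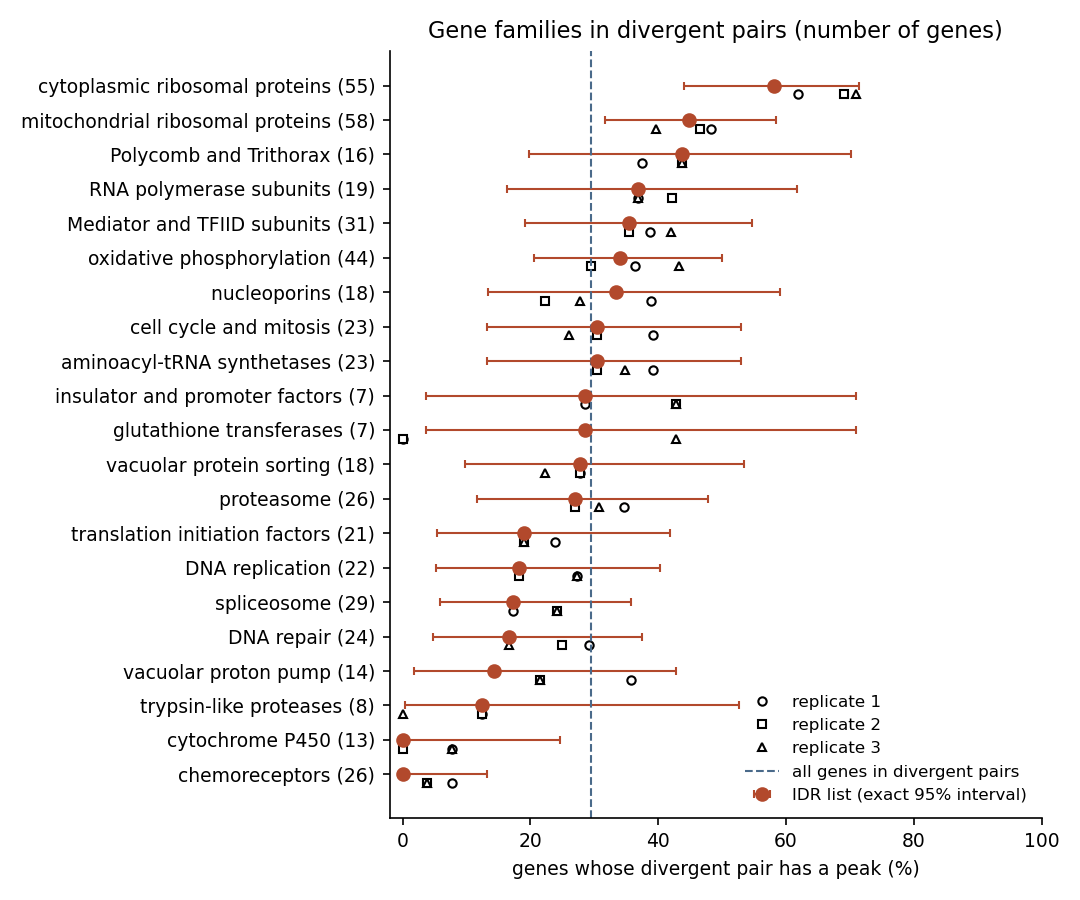
Percent of each family's genes in divergent pairs whose pair has a peak (x axis), for families with at least 7 such genes, whose number is in brackets. Filled points are the IDR list with exact 95% intervals, open symbols the 3 replicates, and the dashed line the 29.5% of all genes in divergent pairs. Cytoplasmic ribosomal proteins, at 58.2%, and mitochondrial ones, at 44.8%, have intervals wholly above the line, and the intervals of the chemoreceptors and the cytochrome P450 genes lie wholly below it.

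In 36 divergent pairs both genes belong to a listed family, with Or67b/Cyp40 counted in, and 7 of these had a peak (19.4%, 8.19 to 36.0). That interval holds the 29.7% of all divergent pairs (791 of 2667). They were RpS27/Nup37 (rank 806), trr/mRpL16 (1031), Cdk1/mRpS7 (1641), mRpL39/Prosbeta2 (2375), ash1/Taf6 (3001), mRpL55/ATPsynD (6604) and GstE10/GstE1 (9774). Cdk1 drives entry into mitosis, and its summit was 219 bp from the start of Cdk1 and 181 bp from that of mRpS7. At trr/mRpL16 it was 246 bp from the start of trr and 60 bp from that of mRpL16. Pairs without a peak included COX8/VhaM9.7-b, Cpr60D/ND-19, Cyp4d14/Cyp4d2 and Cyp6a9/Cyp6a20.

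By chromosome arm the share of divergent pairs with a peak was 34.7% (30.6 to 39.0) on 3L, 31.5% (28.0 to 35.1) on 3R, 30.3% (25.8 to 35.0) on X, 28.9% (24.98 to 33.0) on 2L and 23.2% (19.7 to 27.0) on 2R. In the replicates 3L had 40.7%, 38.2% and 40.5% and 2R 28.0%, 23.8% and 29.1%. The small chromosome 4 had 1 of 11 pairs. 3L was the highest arm and 2R the lowest of the 5 large ones in each replicate.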

How the data were processed

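The deposited lists are of peaks on dm6, per the labels: 1 for each of 3 biological replicates, 1 for all replicates together, and 1 of the peaks that passed an IDR threshold. Each peak's signal is the authors' deposited value on an unstated scale, and its summit is a deposited offset from the peak start. Many deposited −log10 q-values share 1 maximum and were not used. Aligner and peak caller: not given in the sources used here. Depth is unknown.

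Starts and genes came from Ensembl release 115 (BDGP6.54), sequence from the NCBI genome of the same assembly, on 6 arms. A start pair was 2 outward-pointing protein-coding starts of different genes within 1000 bp. Shares have 95% exact binomial intervals, and SDs are over the replicates' own lists. No test was run, since regions are not replicates and there is 1 group. The rule was tested on simulated starts and peaks. Python 3.11.15 with numpy 2.4.6, pandas 2.3.3, scipy 1.17.1 and matplotlib 3.10.9 was used.

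The peaks, words and gene lists were chosen with earlier results of these data known. Named genes followed a rule: both genes of the 10 strongest peaks, those nearest each limit, the closest-spaced pairs, and for each family up to 3 genes with the highest ranks and up to 2 without a peak, by symbol order.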

Additional observations from a re-analysis of the deposited data

How the results depend on the processing

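In all, 19 results were recomputed under up to 12 alternatives per result. None changed sign, but counts, shares, GC content and medians cannot do so, and only the differences could. Of the alternative values, 34 of 76 for the main results and 53 of 120 for the others moved beyond a set limit. That limit was the SD over replicates, or a set ratio for the number of peaks. Leaving out a replicate meant keeping only IDR peaks found again in both other replicates, so fewer peaks were counted. It gave 24.0% to 26.3% of pairs with a peak, 81.6% to 82.1% of summits between the starts, a median spacing of 331 to 335 bp and 75.6% to 83.3% of summits repeated in both others. With only the IDR peaks above the median signal, which are fewer by construction, there were 521 divergent peaks at 20.4% of pairs. Of these 84.6% were between the starts and 90.2% were repeated, with 30.045% GC at summits and a median spacing of 319 bp. A spacing limit of 500 bp gave 73.9% between the starts and a median spacing of 278 bp, and one of 2000 bp gave 435 bp and a GC difference between pairs of -1.10 points. A summit window of 250 bp gave 28.0% of pairs, 81.5% between the starts and 321.5 bp. One of 1000 bp gave 32.4%, 66.0%, 335 bp and a GC difference of -1.79 points. Keeping the 500 strongest peaks gave 32.0% of pairs. The 5'-most start of each gene gave 76.6% between the starts and 338 bp. Matching summits within 50 or 200 bp gave 60.1% or 78.3% repeated. GC content within 100 bp of summits was 34.2%. The GC difference was -3.15 points with 50 bp on each side of the midpoint and -1.31 points among pairs under 300 bp apart. Apart from the alternatives that count fewer peaks, wider windows or other spacings, the cause of each shift was not tested. Shares of ribosomal protein genes, words, gene length and distances were recomputed under the same alternatives, chosen after seeing the data. No paired analysis was possible between groups of samples because there is 1 group, and comparisons within each replicate are given as values. Depth is unknown, so a missing peak was not detectable in these lists rather than shown to be absent.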
